A study of Mus musculus with 12 samples.

Results

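ATP-binding cassette (ABC) genes are the 50 protein-coding mouse genes whose GENCODE M21 symbol is Abc, a subfamily letter from a to g, a number and at most 1 closing letter. They are 50 of 55487 genes in the count table, of which 21897 are protein-coding. The symbols alone chose them, with no measured value, so ABC proteins under other symbols (Tap1, Tap2, Cftr) stood outside and were read separately. RNA sequencing covered 12 mouse libraries in 4 groups of 3. Hepa1, a hepatoma line labelled wild type, and primary mouse embryonic fibroblasts (MEFs) labelled Bach1-/- each received medium conditioned for 48 h by immortalised MEFs that were either control cells or re-expressed Bach1 and were called ferroptotic. All 4 groups shared DMEM with 10% fetal bovine serum, penicillin-streptomycin and nonessential amino acids, 4 days of culture with daily renewal, 0.1 mM 2-mercaptoethanol and 0.4 mg/mL vitamin E. Ferroptosis is an iron-dependent death by lipid peroxidation, and BACH1 is a repressor of heme, iron and glutathione genes. Hepa1 is a single line, and the cells also differ in genotype, so cell type and Bach1 genotype cannot be told apart. How Bach1 was re-expressed is not given in the sources used here.

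ABC proteins share a nucleotide-binding fold that hydrolyses ATP, and in most of them this drives a substrate across a membrane. Members of the A and G subfamilies move sterols and phospholipids, and Abca1 passes cholesterol to apolipoproteins. B and C members export drugs, bile constituents, organic anions and glutathione conjugates, some B members work in mitochondria, and D members carry acyl-CoA into peroxisomes. The E and F proteins have no membrane-spanning part and act on ribosomes. In liver cells the family shapes bile and the disposal of conjugates, and in fibroblasts sterol efflux and drug export are the best known roles.

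Depth ran from 18.58 M to 23.4 M assigned reads per library, so 3 reads stand for 0.128 to 0.161 CPM, the read count scaled to library size. The labels do not say whether replicates came from separate cultures, and p-values then reflect no more than how far these libraries vary, possibly for technical reasons. In these bulk samples fewer cells of a type and less RNA per cell cannot be told apart. Of the liver markers listed, Alb showed 1988 reads over the Hepa1 control libraries, 18220 over the ferroptotic ones and 0 in MEFs, but Apoa1, Ttr and Serpina1a were at 0 in Hepa1 too and Hnf4a had at most 1 read in a group. All 8 listed fibroblast genes were read in MEFs, with a summed level of 38220 to 46790 CPM per library, against 1814 to 2815 CPM in Hepa1. The listed fibroblast gene Dcn went the other way, with 17074 (control) and 19591 (ferroptotic) reads over the Hepa1 groups against 238 and 877 over the MEF groups. Of the 6 macrophage genes, Ptprc and Tyrobp were at 0 in all 12 libraries, while Hepa1 held 1462 and 211 reads of Cd68, 910 and 612 of Cd14, 206 and 144 of Csf1r and 2 and 118 of Adgre1 in the 2 media. Of the 4 endothelial genes, Cdh5 was at 0 throughout and Tek had 259 and 476 reads in MEFs. Hepa1 ferroptotic replicate 3 held 368 reads of the collagen gene Col1a2, where its group mates held 23 and 19. MEF ferroptotic replicate 3 held 47 reads of the keratin gene Krt18, where its group mates held 2 each. The members with few reads that were higher in the same libraries are given below. Marker sums also moved with the medium. In Hepa1 the 9 listed liver genes summed to 485.4 to 500.7 CPM in control and 1649 to 1800 CPM in ferroptotic medium, and the fibroblast list to 1814 to 2132 and 2746 to 2815 CPM. The macrophage list summed there to 41.54 to 47.39 and 16.64 to 19.91 CPM. In MEFs the fibroblast list summed to 44860 to 46790 CPM in control and 38220 to 39520 CPM in ferroptotic medium, and the liver list to 23.39 to 25.29 and 8.377 to 12.07 CPM. Most reads of the liver list came from Trf, with 23484 (control) and 78840 (ferroptotic) in Hepa1 and 1551 and 646 in MEFs. Afp, also listed, had 3470 and 3918 reads over the Hepa1 groups. The part of these shifts in the results was not tested.

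Of the 50 members, 35 passed the filter on low counts in the fit over all libraries, 31 in the Hepa1 fit and 31 in the MEF fit. The filter kept 27 in both cell types, Abca12, Abca6, Abcb1a and Abcc2 in Hepa1 alone, and Abcc1, Abcc6, Abcg1 and Abcg4 in MEFs alone. The other 15 never exceeded 13 reads in a library, and Abcb5 and Abcg5 had none. They are Abcb4, Abcb11, Abcg5 and Abcg8, which export phospholipid, bile salt and sterol into bile, the sulfonylurea receptor genes Abcc8 and Abcc9, Abca4 and Abca13 to Abca17 of the A subfamily, Abcb5, Abcc12 and Abcg3. None of the 9 listed bile acid partners, such as Cyp7a1 and Nr1h4, passed the filter in either cell type.

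Per kilobase of annotated exon, the ribosome-linked Abcf1 had the highest mean in all 4 groups, at 58.4 ± 0.792 normalised CPM per kb in Hepa1 in control medium and 24.7 ± 0.888 in MEFs in control medium (SD, n = 3). The Hepa1 order in control medium went on with Abcc5 (53.4 ± 1.09), Abcc4 (47.4 ± 1.16), Abce1 (39.1 ± 2.82), Abcf2 (38.8 ± 0.854), Abca1 (35.4 ± 0.359), Abcc2 (33.4 ± 1.14) and Abcf3 (28.9 ± 1.08). Abce1 and Abcf2 differed by less than their SDs. So 3 exporters of the C subfamily ranked among the 7 highest levels per kb in Hepa1 in control medium. In MEFs the order in control medium after Abcf1 was Abcf2 (23.6 ± 0.741), Abce1 (21.4 ± 0.218), the peroxisomal Abcd3 (18.1 ± 0.426), Abcf3 (14.2 ± 0.774) and the mitochondrial Abcb10 (10.5 ± 0.0791), where Abcf1 and Abcf2 differed by less than their summed SDs. With the longest transcript as the length, 9 of the 10 highest in Hepa1 and 10 of 10 in MEFs were still among the 10 highest, but Abcc5 then stood first in Hepa1, at 98.1 ± 2.0 against 81.5 ± 1.11 for Abcf1 in control medium and 80.6 ± 1.59 against 76.4 ± 0.933 in ferroptotic medium.

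**Figure D1:**
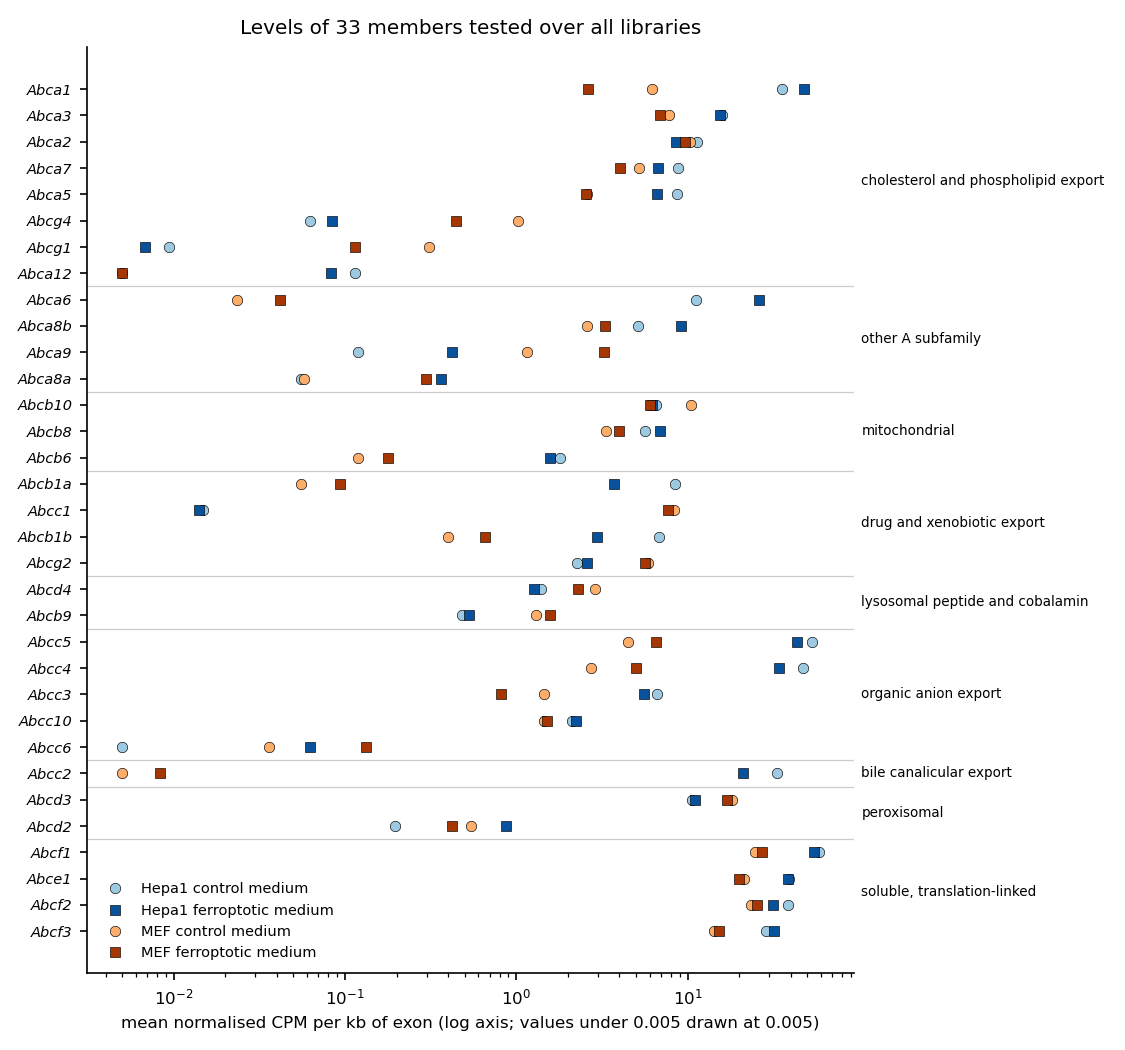
Mean level of 33 of the 35 members that passed the filter over all libraries, in normalised CPM per kb of annotated exon on a log axis, grouped by role; circles are control medium and squares ferroptotic medium, blue Hepa1 and orange MEFs. Libraries were scaled within each cell type. By this length Abcf1 is highest in all 4 groups (by the longest transcript Abcc5 is highest in Hepa1), and Abcc2, Abca6 and Abcb1a lie far apart between the cell types in one direction and Abcc1 in the other.

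In Hepa1, 20 of 31 tested members changed between the media, 9 higher and 11 lower in ferroptotic medium (edgeR quasi-likelihood test, Benjamini-Hochberg adjusted p under 0.05 over all genes). That is 64.5% of the tested members, and the share among all 13169 genes tested was 58.1%, with 29.3% higher and 28.8% lower. The median log2 change of the tested members was -0.073, against 0.004 over all genes, and the median size was 0.303 against 0.219. In MEFs, 26 of 31 tested members changed, 12 higher and 14 lower, or 83.9% beside 55.0% of all 14441 genes, with 27.8% higher and 27.2% lower. The median log2 change was -0.052 against 0.003, and the median size 0.33 against 0.2. Without scaling beyond library totals the MEF split was 12 higher and 9 lower, and that of all genes went from 4009 higher and 3934 lower to 5204 and 2963. Without MEF ferroptotic replicate 3, 21 MEF members were called, and without Hepa1 ferroptotic replicate 3 the Hepa1 count was 20.

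Among the 27 members tested in both cell types, 15 were called in both. Of these, 7 moved in opposite directions and 8 in the same direction. As shares of the 27, that is 25.9% and 29.6%, beside 15.3% and 20.2% of all 12042 genes tested in both. Called in both were 55.6% of the 27 members and 35.5% of all genes. Of the 4275 genes called in both, 1839 moved in opposite directions and 2436 in the same direction. Abca1 and Abcd2 rose in Hepa1 and fell in MEFs. Abcb1b, Abcc4, Abcc5, Abcf1 and Abcf2 fell in Hepa1 and rose in MEFs. Both cell types gained Abca8a, Abca8b, Abca9, Abcb8 and Abcf3 and lost Abca2, Abca7 and Abcc3. Some of these calls were lost in alternative runs: Abcf1 in Hepa1, and Abcd2, Abcf2, Abca2 and Abcf3 in MEFs. Of the opposite moves, those of Abca1, Abcb1b, Abcc4 and Abcc5 held in every run. The share of all genes was not recounted in this way, so the comparison with 15.3% depends on the weaker calls. The difference of the 2 responses passed as an interaction over 12 libraries for 19 of 35 members, 9 with the more positive value in Hepa1 and 10 with the more negative, beside 44.2% of all 15627 genes (23.3% and 20.9%).

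**Figure D2:**
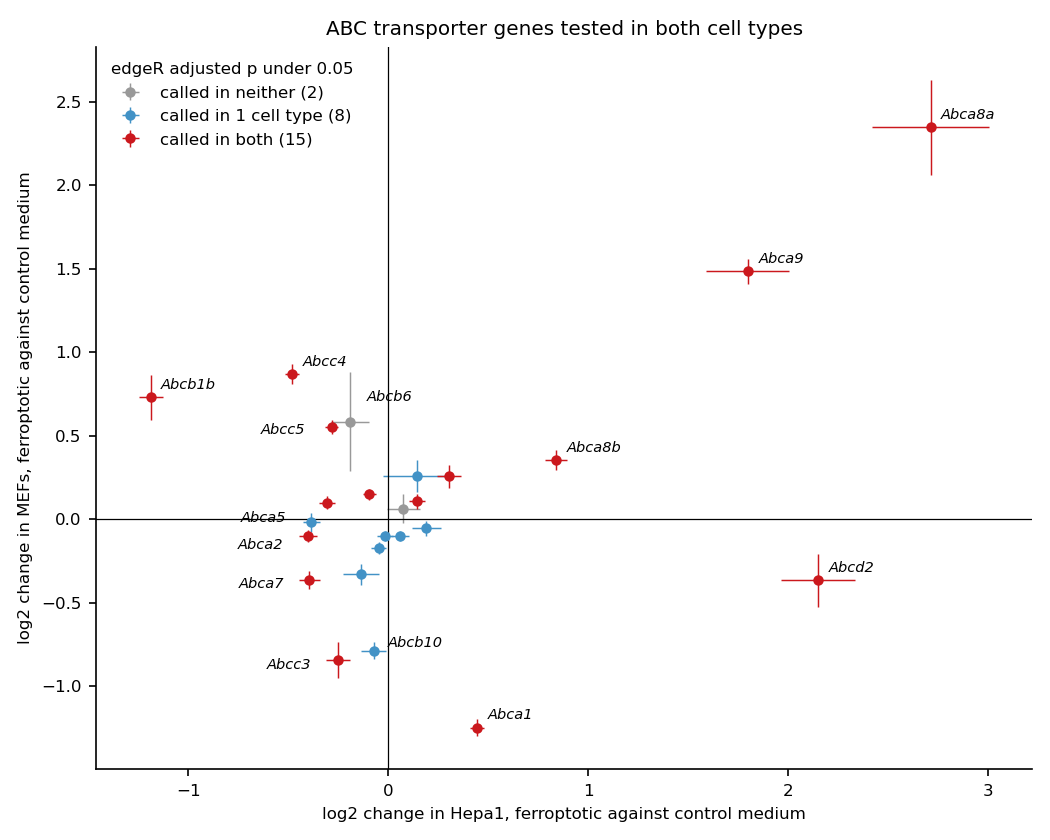
Log2 change from control to ferroptotic medium of 25 of the 27 members tested in both cell types, Hepa1 on the x axis and MEFs on the y axis; bars are standard errors from edgeR and colours show in how many cell types the member was called. Abca8a and Abca9 sit far out in the upper right, Abca1 and Abcd2 in the lower right, and Abcb1b, Abcc4 and Abcc5 in the upper left.

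Among sterol and phospholipid exporters, Abca1 was the member called in opposite directions in the 2 cell types. Abca1 (ENSMUSG00000015243, GRCm38 chromosome 4, 53030787 to 53159895, minus strand), the cholesterol exporter whose loss stops the formation of high-density lipoprotein, read 363, 369 and 370 normalised CPM in Hepa1 in control medium and 479, 508.5 and 512 in ferroptotic medium. In MEFs it read 69.6, 59.8 and 64.0 CPM in control and 29.6, 25.9 and 26.1 in ferroptotic medium. The groups did not overlap in either cell type, and the direction was opposite. The log2 change was 0.44 in Hepa1 (SE 0.0333, edgeR adjusted p = 4.08e-12) and -1.25 in MEFs (SE 0.0517, adjusted p = 2.99e-27). The interaction was 1.69 (SE 0.067, adjusted p = 6.65e-25).

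The promoter of Abca1 is shown because this member turned in opposite directions and is a textbook target of the liver X receptors (LXR). These oxysterol sensors bind with the retinoid X receptors to a direct repeat of 2 half-sites spaced by 4 bases. The 300 bases run from 250 before to 50 after the RefSeq start (chr4:53159846-53160145, GRCm38.p6, minus strand, read 5′ to 3′). Capitals mark, in order, a GC box, an E-box, a second GC box, a direct repeat and a TATA box.
Abca1: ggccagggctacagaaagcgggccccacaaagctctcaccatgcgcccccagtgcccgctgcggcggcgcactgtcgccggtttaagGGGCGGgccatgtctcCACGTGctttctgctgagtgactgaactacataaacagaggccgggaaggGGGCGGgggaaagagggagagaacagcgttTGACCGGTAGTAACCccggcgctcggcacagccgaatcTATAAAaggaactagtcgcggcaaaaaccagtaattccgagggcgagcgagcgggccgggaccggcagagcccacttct
The repeat, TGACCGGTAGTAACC, ends 53 bases before the start and holds, on the other strand, GGTNA and GGTCA. These are the 2 half-sites without their first base, and 4 bases separate the full half-sites. That pattern was written down after this sequence had been read, so its match in Abca1 is no test. The pattern occurs in 0.207% of the 32851 RefSeq promoter entries and in 1 of the 45 entries of ABC genes.

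Abcg1 and Abcg4, which pass sterol to high-density lipoprotein, were low genes of MEFs. Abcg1 read 2.63, 1.96 and 2.19 CPM in control and 0.543, 0.986 and 0.998 in ferroptotic medium, and Abcg4 read 5.89, 4.83 and 5.27 and then 2.17, 2.11 and 2.66. Neither gene's groups overlapped. Abcg1 fell by 1.41 on the log2 scale (SE 0.231, adjusted p = 7.04e-07) and Abcg4 by 1.19 (SE 0.143, adjusted p = 3.75e-10). In Hepa1 each had at most 20 reads in a library, and the interaction called for Abcg4 (1.61, SE 0.568, adjusted p = 0.0185) rested on Hepa1 ferroptotic replicate 1, whose 20 reads stood against 5 and 1 in its group mates. Without that library the value was 0.13, without Hepa1 control replicate 2 it was 1.36, and neither passed. With all 12 libraries kept, the interaction of Abcg4 also missed the threshold with the DESeq2 Wald test (1.61) and with limma-voom (0.92).

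Abca7, a phospholipid exporter, fell in both cell types: from 62.0, 55.2 and 60.9 CPM to 44.2, 46.8 and 44.6 in Hepa1, and from 34.6, 34.9 and 36.4 to 27.3, 25.4 and 29.5 in MEFs. The log2 changes were -0.39 (SE 0.0518, adjusted p = 2.17e-07) and -0.36 (SE 0.0537, adjusted p = 7.41e-08). Its groups did not overlap. Abca2, an endolysosomal lipid transporter known from myelinating cells, went from 99.1, 92.1 and 93.0 CPM to 70.0, 71.1 and 74.1 in Hepa1 (-0.40, SE 0.0434, adjusted p = 6.49e-09). In MEFs it read 84.1, 85.6 and 88.0 and then 82.0, 79.6 and 79.0 CPM (-0.10, SE 0.035, adjusted p = 0.0135). That MEF call was lost without scaling (-0.03), with the DESeq2 Wald test, without MEF control replicate 3 (-0.09) and without MEF ferroptotic replicate 3 (-0.09). The interaction of Abca2 was -0.30 (SE 0.0575, adjusted p = 2.84e-05).

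Abca5, a lysosomal member of the A subfamily, fell in Hepa1 from 100.1, 102 and 95.3 CPM to 75.2, 73.2 and 79.7, with no overlap (-0.38, SE 0.0436, adjusted p = 1.56e-08). In MEFs its 31.9, 27.0 and 30.3 CPM and 29.5, 30.1 and 28.5 CPM overlapped, with a log2 change of -0.02 (SE 0.0556, adjusted p = 0.811). The interaction was -0.36 (SE 0.0739, adjusted p = 6.39e-05). Abca3, the surfactant lipid transporter of lamellar bodies, had a log2 change of -0.05 in Hepa1 (adjusted p = 0.31) and fell by 0.17 in MEFs (adjusted p = 0.000102). Abca12, the lipid transporter of skin lamellar granules, showed 99 Hepa1 reads in control medium and 73 after ferroptotic medium, with a log2 change of -0.47 (adjusted p = 0.0655). Of the 8 exporters in this role, 1 rose and 3 fell among 6 tested in Hepa1, and 0 rose and 6 fell among 7 tested in MEFs, beside 29.3% higher and 28.8% lower of all genes in Hepa1 and 27.8% and 27.2% in MEFs.

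The partners listed for LXR and cholesterol handling did not move one way. In Hepa1, 4 of 11 tested were higher and 3 lower (median log2 change 0.037, all genes 0.004), and in MEFs 7 of 14 were higher and 4 lower (0.083, all genes 0.003). Over all genes 29.3% were higher and 28.8% lower in Hepa1, and 27.8% and 27.2% in MEFs. Npc1, which moves cholesterol out of lysosomes, fell in both, from 503 to 281 CPM in Hepa1 (-0.84, adjusted p = 4.09e-18) and from 156 to 112 CPM in MEFs (-0.47, adjusted p = 8.80e-19). Soat1, which esterifies cholesterol, rose in Hepa1 from 8.38 to 18.0 CPM (1.10, adjusted p = 6.99e-12). Scarb1, the high-density lipoprotein receptor, fell in MEFs from 30.1 to 14.8 CPM (-1.03, adjusted p = 1.18e-20). Apoe, an apolipoprotein gene and LXR target, rose in MEFs from 69.8 to 128 CPM (0.87, adjusted p = 4.94e-27), so among MEF genes tied to sterol efflux Abca1 and Apoe moved in opposite directions.

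A run of A subfamily genes on chromosome 11 gained RNA in ferroptotic medium. On the minus strand between 109932190 and 110337716 (GRCm38) lie, by position, Abca8b, Abca8a, Abca9, Abca6 and Abca5, and the first 4 are lipid transporter genes of little known substrate. Abca8a read 0.308, 0.305 and 0.421 CPM in Hepa1 in control medium and 2.54, 1.70 and 2.61 in ferroptotic medium. In MEFs it read 0.239, 0.410 and 0.439 and then 1.76, 2.02 and 1.83 CPM. No libraries overlapped, and the log2 change was 2.71 in Hepa1 (SE 0.294, adjusted p = 6.63e-09) and 2.35 in MEFs (SE 0.285, adjusted p = 5.37e-10). The 4 groups held 20, 137, 23 and 128 reads of it. The interaction was 0.37 with SE 0.478 and adjusted p = 0.583.

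Abca9 followed at a higher level in MEFs, with 9.96, 8.97 and 8.97 CPM in control and 26.1, 28.3 and 23.8 in ferroptotic medium (log2 change 1.48, SE 0.074, adjusted p = 7.08e-24). Its Hepa1 libraries read 0.822, 1.27 and 0.790 and then 3.39, 3.34 and 3.38 CPM (1.80, SE 0.208, adjusted p = 2.07e-08). Neither pair overlapped, and the interaction was 0.32 (SE 0.231, adjusted p = 0.286). Abca8b read 37.5, 40.9 and 36.0 CPM and then 68.0, 72.4 and 64.8 in Hepa1 (0.84, SE 0.0542, adjusted p = 1.59e-13), and 20.1, 17.7 and 19.8 and then 25.4, 25.2 and 23.2 in MEFs (0.36, SE 0.0622, adjusted p = 2.48e-06). Its rise was larger in Hepa1, with an interaction of 0.49 (SE 0.084, adjusted p = 4.26e-06).

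Abca6 was almost confined to Hepa1, where it rose from 61.9, 62.4 and 56.9 CPM to 133, 146 and 145, with no overlap (1.23, SE 0.0457, adjusted p = 6.79e-19), the smallest adjusted p of any member in the Hepa1 comparison. MEFs held 8 reads in control and 16 in ferroptotic medium, 12 of them in replicate 3, the library with the Krt18 reads. So all 4 tested genes of this group rose in Hepa1 and all 3 tested rose in MEFs, beside 29.3% and 27.8% of all genes, while the fifth gene of the run, Abca5, fell in Hepa1. Abca8a and Abca8b share 1.64% and 1.42% of their 50-base exon windows with each other, and Abca6 and Abca9 share 0.243% and 0.162%. Exons of Abca8b also overlap Gm11697 on the other strand, whose reads cannot be told apart without a strand setting.

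**Figure D3:**
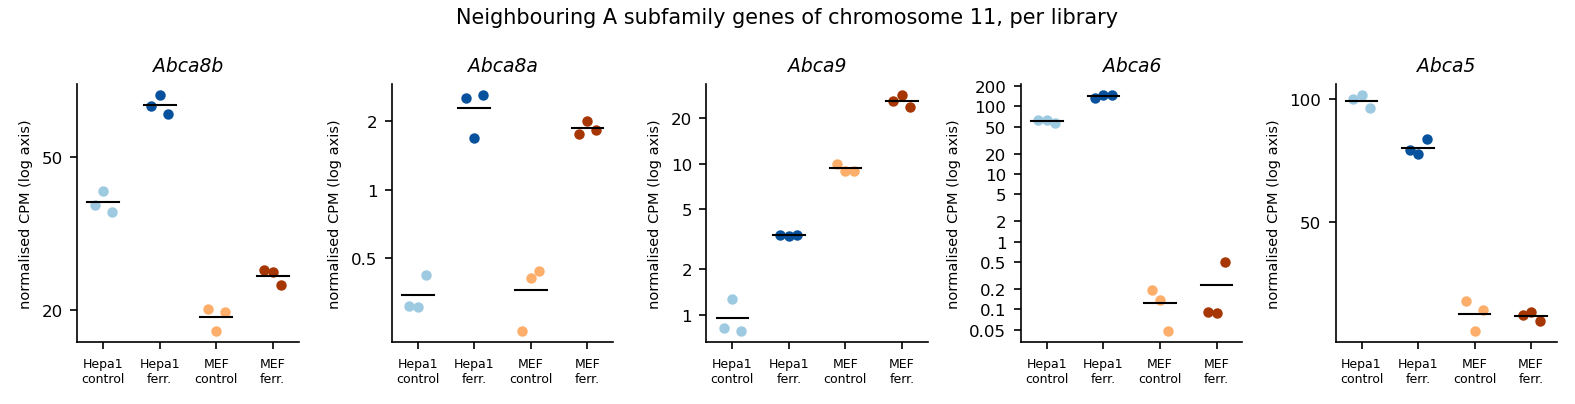
Normalised CPM in each library (points) and group mean (line) for the 5 neighbouring genes in order of position, on log axes that differ between panels. Abca8b, Abca8a and Abca9 are higher in ferroptotic medium in both cell types and Abca6 in Hepa1, whereas Abca5 is lower in Hepa1 and overlaps in MEFs.

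The promoters of the 3 neighbours that rose in both cell types are printed to show what they share in sequence. Each holds 300 bases, 250 before and 50 after the RefSeq start, on GRCm38.p6 and read 5′ to 3′ on the minus strand: chr11:109995796-109996095 for Abca8b, chr11:110095888-110096187 for Abca8a and chr11:110168104-110168403 for Abca9. Capitals mark an E-box in Abca8a, and in Abca8b a GC box and then an antioxidant response element core whose last bases are the first of an E-box. Abca9 has no capitals because none of the searched motifs occurs in its window.
Abca8b: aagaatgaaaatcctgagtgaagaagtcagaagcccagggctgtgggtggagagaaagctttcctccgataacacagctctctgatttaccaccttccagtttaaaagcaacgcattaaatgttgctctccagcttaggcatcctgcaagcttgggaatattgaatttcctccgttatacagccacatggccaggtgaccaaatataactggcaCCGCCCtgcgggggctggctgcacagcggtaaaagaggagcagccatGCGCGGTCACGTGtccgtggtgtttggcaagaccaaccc
Abca8a: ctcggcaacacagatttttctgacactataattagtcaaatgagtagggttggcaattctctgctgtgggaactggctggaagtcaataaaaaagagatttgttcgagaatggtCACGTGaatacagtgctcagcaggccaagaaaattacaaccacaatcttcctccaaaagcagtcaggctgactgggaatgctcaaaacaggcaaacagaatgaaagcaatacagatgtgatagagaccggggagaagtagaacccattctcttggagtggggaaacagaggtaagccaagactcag
Abca9: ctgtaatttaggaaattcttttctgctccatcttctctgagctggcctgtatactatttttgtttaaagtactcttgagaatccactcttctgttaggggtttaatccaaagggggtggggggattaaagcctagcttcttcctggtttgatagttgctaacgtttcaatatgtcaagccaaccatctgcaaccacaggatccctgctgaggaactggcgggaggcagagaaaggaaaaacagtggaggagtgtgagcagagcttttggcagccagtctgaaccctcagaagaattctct
The E-box lies 131 bases before the start in Abca8a and 19 bases after it in Abca8b, and no searched motif is present in all 3 windows. Abca6 is named only.

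Over the whole family, 38 of 50 members matched the RefSeq promoter table with 45 entries, each of 300 bases. The E-box CACGTG, a site of basic helix-loop-helix factors, occurs in 13.3% of these entries and in 7.15% of all 32851. The antioxidant response element core TGACNNNGC, the shared site of NRF2 and BACH1 with small Maf proteins, occurs in 15.6% against 12.4%. The GC box GGGCGG occurs in 46.7% against 35.7%, and the TATA box TATAAA in 15.6% against 13.6%. Both strands were searched, and motifs may overlap, as in Abca8b. These are counts of letters, with no binding measured here.

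Drug exporters of the B subfamily fell in Hepa1. Abcb1a (chromosome 5, 8660077 to 8748575) and Abcb1b (chromosome 5, 8798147 to 8866315), neighbours that both encode a P-glycoprotein, the multidrug efflux pump, read 45.7, 46.9 and 46.6 CPM and 51.5, 56.8 and 54.3 CPM in Hepa1 in control medium. In ferroptotic medium Abcb1a read 19.7, 20.6 and 20.9 CPM and Abcb1b 24.6, 25.0 and 21.9 CPM. Every ferroptotic library was below every control library. The log2 changes were -1.18 (SE 0.0568, adjusted p = 2.12e-16) and -1.19 (SE 0.0594, adjusted p = 5.73e-16).

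MEFs held little of either, and there Abcb1b rose, from 3.35, 3.10 and 3.07 CPM to 5.16, 4.43 and 6.15 (0.73, SE 0.137, adjusted p = 8.57e-06), with no overlap. The interaction of Abcb1b was -1.92 (SE 0.145, adjusted p = 3.84e-15), and that of Abcb1a, with 19 and 35 reads in the MEF groups, was -1.94 (SE 0.403, adjusted p = 8.54e-05). The genes are near copies: 17.6% of the 50-base exon windows of Abcb1a and 11.2% of those of Abcb1b recur in each other or in Abcb4. Reads that match both places were not counted, so the split between them is uncertain. Each also overlaps an annotated gene on the other strand, Gm42686 and Gm5106.

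Abcg2, the breast cancer resistance protein that exports drugs, porphyrins and urate, read 20.03, 18.5 and 16.8 CPM and then 20.7, 22.2 and 20.3 CPM in Hepa1 (0.19, SE 0.0731, adjusted p = 0.0271). This call was lost with the DESeq2 Wald test, without Hepa1 control replicate 3 (0.13) and without Hepa1 ferroptotic replicate 2 (0.15). In MEFs, at 46.2, 49.6 and 47.5 and then 45.6, 45.2 and 47.4 CPM, its groups overlapped (-0.05, adjusted p = 0.321). The interaction of 0.25 (adjusted p = 0.0143) missed the threshold without either of those Hepa1 libraries (0.19 and 0.22) and without MEF control replicate 2 (0.21). Abcc1, the multidrug resistance protein that exports glutathione conjugates, was a MEF gene at 123, 129 and 125 CPM in control and 114, 119 and 114 in ferroptotic medium (-0.12, SE 0.0317, adjusted p = 0.00172). Without scaling beyond library totals that change was -0.05 and was not called.

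Among organic anion exporters, Abcc4 and Abcc5 turned opposite ways in the 2 cell types, and no other was called in opposite directions. Abcc4 (chromosome 14, 118482692 to 118706219, minus strand), which exports cyclic nucleotides and prostaglandins, read 298, 312 and 299 CPM in Hepa1 in control and 219, 220.1 and 212 in ferroptotic medium. MEFs read 17.2, 16.8 and 18.2 and then 31.3, 31.9 and 32.3 CPM. Neither pair overlapped, and the changes were -0.48 (SE 0.034, adjusted p = 1.18e-12) and 0.87 (SE 0.0577, adjusted p = 7.45e-19). Abcc5 (chromosome 16, 20331303 to 20426394, minus strand), a related exporter of cyclic nucleotides and, in model organisms, of heme, read 582, 559 and 569 and then 478, 468 and 460 CPM in Hepa1. In MEFs it read 50.8, 47.8 and 44.8 and then 67.6, 70.6 and 72.0 CPM.

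For Abcc5 the log2 change was -0.28 in Hepa1 (SE 0.0318, adjusted p = 1.24e-08) and 0.55 in MEFs (SE 0.0424, adjusted p = 2.08e-16), again without overlap. The interactions were -1.35 for Abcc4 (SE 0.0644, adjusted p = 6.01e-22) and -0.83 for Abcc5 (SE 0.0561, adjusted p = 8.53e-17). Even so, both stayed far higher in Hepa1 in either medium. Abcc3, a basolateral exporter of conjugated bile acids and glucuronides, fell in both: from 39.1, 34.8 and 39.3 to 30.8, 33.7 and 30.7 CPM in Hepa1 (-0.25, SE 0.0604, adjusted p = 0.000765) and from 8.23, 8.65 and 8.10 to 5.11, 4.35 and 4.49 CPM in MEFs (-0.84, SE 0.107, adjusted p = 2.00e-09). Its fall was larger in MEFs, with an interaction of 0.59 (SE 0.121, adjusted p = 6.43e-05).

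Abcc2 (chromosome 19, 43782192 to 43840740) moves bilirubin and drug conjugates into bile. Of the 5 members grouped as bile canalicular and sterol exporters, it alone passed the filter. Abcc2 read 276, 295 and 283 CPM in Hepa1 in control and 184, 177 and 178 in ferroptotic medium. It fell by 0.66 on the log2 scale with no overlap (SE 0.0353, adjusted p = 2.32e-15). MEFs showed 0 reads of it in control medium and 5 after ferroptotic medium, 4 of them in replicate 3. Its interaction of -4.65 (adjusted p = 0.0136) rests on those few reads and on the prior count, and without MEF ferroptotic replicate 3 it was -3.15 and missed the threshold. Abcc6, the transporter behind the calcification disease pseudoxanthoma elasticum, went from 13 to 52 reads in MEFs (1.86, SE 0.402, adjusted p = 8.96e-05) and from 0 to 21 in Hepa1, at least 6.83-fold higher with a floor of 3 reads over the group. Its interaction of 3.78 (adjusted p = 0.0173) also depends on the prior count and missed the threshold without Hepa1 control replicate 1 (3.76) or 2 (3.76). Abcc10 was not called in Hepa1 (0.08, adjusted p = 0.452) or in MEFs (0.06, adjusted p = 0.549).

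Promoters of Abcc2 and Abcc4 are shown as members that fell in Hepa1 and hold the antioxidant response element core. The windows are built as above, chr19:43782058-43782357 on the plus strand and chr14:118706170-118706469 on the minus strand, GRCm38.p6, from RefSeq. Capitals mark that core in Abcc2, and in Abcc4 an E-box, 2 GC boxes and then the core directly followed by another GC box.
Abcc2: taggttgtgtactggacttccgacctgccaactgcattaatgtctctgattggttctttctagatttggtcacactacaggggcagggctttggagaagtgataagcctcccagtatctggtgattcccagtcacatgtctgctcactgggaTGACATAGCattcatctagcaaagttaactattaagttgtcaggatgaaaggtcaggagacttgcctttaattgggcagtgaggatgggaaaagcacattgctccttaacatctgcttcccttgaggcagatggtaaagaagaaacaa
Abcc4: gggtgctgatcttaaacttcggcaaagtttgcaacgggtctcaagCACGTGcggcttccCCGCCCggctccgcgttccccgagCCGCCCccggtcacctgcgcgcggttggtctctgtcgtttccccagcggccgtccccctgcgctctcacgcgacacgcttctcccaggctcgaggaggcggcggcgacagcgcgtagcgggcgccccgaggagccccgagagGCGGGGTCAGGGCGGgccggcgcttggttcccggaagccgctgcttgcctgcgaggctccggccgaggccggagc
The core ends 90 bases before the start in Abcc2 and 17 bases before it in Abcc4. A further RefSeq start of Abcc4, 29288 bases from the GENCODE one, holds the core 15 bases before it. The core also occurs in Abcb1a, Abcc10 and Abca8b, members that fell, were not called and rose in Hepa1, respectively, and not in the Abcc5 window. The Abcb1a window with the core begins at position 8566841 of chromosome 5, far from the GENCODE gene start at 8660077.

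Of the listed conjugation and xenobiotic regulation partners of these exporters, 7 were lower and 3 higher of 13 tested in Hepa1 (median -0.093). In MEFs 3 were lower and 5 higher of 13 (median 0.017). Over all genes 28.8% were lower and 29.3% higher in Hepa1 (median 0.004), and 27.2% and 27.8% in MEFs (0.003). The 7 lower in Hepa1 were Ahr, Arnt, Gclc, Gclm, Gss, Gsr and Ugdh. Glutathione transferase genes did not fall there. Gsta4 (0.41, adjusted p = 7.52e-08) and Gstp1 (0.26, adjusted p = 8.61e-06) rose, and Gstm1 (0.07, adjusted p = 0.0994) was not called. Ugdh, which makes UDP-glucuronic acid, fell in Hepa1 from 265 to 153 CPM (-0.79, adjusted p = 9.98e-17), and Gss, glutathione synthetase, from 52.8 to 30.2 CPM (-0.81, adjusted p = 1.07e-13). In MEFs the glutathione transferase gene Gsta4 rose from 42.1 to 66.6 CPM (0.66, adjusted p = 7.16e-20). Sult1a1, a phenol sulfotransferase, rose there from 0.835 to 5.96 CPM (2.82, adjusted p = 1.57e-19). The difference between the lists of the 2 cell types was not tested.

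**Figure D4:**
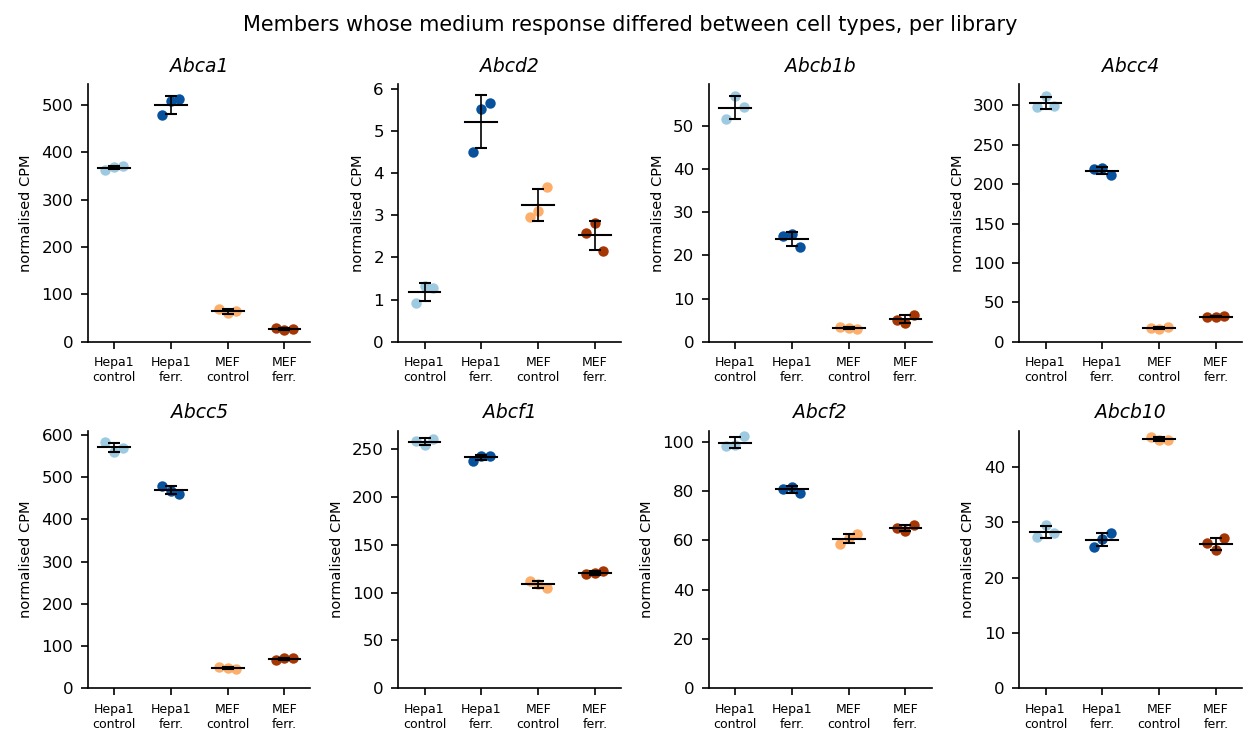
Normalised CPM in each library (points) with group mean and SD (lines, n = 3) for 8 members whose medium response differed between the cell types, on linear axes from 0. Abca1 and Abcd2 are higher in ferroptotic medium in Hepa1 and lower in MEFs, Abcb1b, Abcc4, Abcc5, Abcf1 and Abcf2 show the reverse, and Abcb10 is lower in MEFs and overlaps in Hepa1.

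Among mitochondrial members, Abcb10, which supports heme synthesis in the inner membrane, fell in MEFs from 45.5, 44.8 and 44.9 to 26.3, 24.9 and 27.1 CPM (-0.79, SE 0.0493, adjusted p = 8.37e-20). In Hepa1 its 27.3, 29.5 and 28.03 and 25.6, 26.9 and 28.1 CPM overlapped (-0.07, SE 0.0612, adjusted p = 0.32). The interaction was 0.72 (SE 0.0792, adjusted p = 2.44e-10). Exons of Abcb10 overlap Gm45890 on the other strand. Abcb8, linked to mitochondrial iron export and potassium channels, rose in both, by 0.30 in Hepa1 (adjusted p = 8.76e-05) and 0.26 in MEFs (adjusted p = 0.00111).

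Abcb6, a porphyrin transporter, had log2 changes of -0.19 in Hepa1 (adjusted p = 0.0857) and 0.58 in MEFs (adjusted p = 0.0896). Its interaction of -0.77 (adjusted p = 0.0312) was lost in the DESeq2 Wald test, with no low-count filter, without MEF control replicate 2 (-0.79) or 3 (-0.67), and without MEF ferroptotic replicate 1 (-0.56). Exons of Abcb6 overlap those of Gm29253 on the same strand. The 18 listed heme and iron-sulfur partners were 8 higher and 3 lower in Hepa1 (median 0.098) and 3 higher and 3 lower in MEFs (median 0.026). All genes together were 29.3% higher and 28.8% lower in Hepa1 (median 0.004), and 27.8% and 27.2% in MEFs (0.003). Alad, the second enzyme of heme synthesis, rose in Hepa1 from 570 to 1104 CPM (0.95, adjusted p = 3.14e-18), while Alas1, the first and rate-limiting one, fell from 70.0 to 42.2 CPM (-0.73, adjusted p = 9.82e-13). The iron importer gene Slc25a37, whose protein is known to bind Abcb10, fell there from 102 to 60.1 CPM (-0.76, adjusted p = 8.19e-14) and rose in MEFs, where Abcb10 fell, from 17.9 to 24.2 CPM (0.44, adjusted p = 6.10e-08).

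Among peroxisomal members, Abcd2 was called higher in Hepa1 and, at the threshold, lower in MEFs. Abcd2, which carries very-long-chain and polyunsaturated acyl-CoA, read 0.924, 1.32 and 1.26 CPM in Hepa1 in control and 4.49, 5.51 and 5.65 in ferroptotic medium, with no overlap (2.15, SE 0.183, adjusted p = 5.87e-11). MEFs read 2.97, 3.10 and 3.66 and then 2.58, 2.82 and 2.16 CPM (-0.36, SE 0.159, adjusted p = 0.0478). That MEF call lies at the threshold and was lost without scaling, with the DESeq2 Wald test, with limma-voom, with no low-count filter and without MEF control replicate 2 (-0.40) or 3 (-0.28) or MEF ferroptotic replicate 1 (-0.38) or 3 (-0.26). The interaction was 2.52 (SE 0.249, adjusted p = 1.13e-11), and it passed in every alternative run.

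Abcd3, the abundant peroxisomal membrane protein PMP70, had 0.06 in Hepa1 (adjusted p = 0.261) and -0.10 in MEFs (adjusted p = 0.00604), but -0.03 in MEFs without scaling, where it was not called. In Hepa1 the change of Abcd3 without scaling was 0.11 and was called higher. Its interaction of 0.16 was 0.13 without Hepa1 ferroptotic replicate 3 and was not called then. Listed peroxisomal partners were 7 higher and 1 lower of 15 tested in Hepa1 (median 0.061) and 1 higher and 6 lower of 15 in MEFs (median -0.054). Over all genes 29.3% were higher and 28.8% lower in Hepa1 (median 0.004), and 27.8% and 27.2% in MEFs (0.003). Scp2, which encodes a sterol carrier and peroxisomal thiolase, fell in MEFs from 83.0 to 54.9 CPM (-0.59, adjusted p = 1.04e-19).

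Of the lysosomal pair, Abcd4, which takes part in cobalamin release, fell in MEFs by 0.33 (adjusted p = 9.10e-06) and read -0.14 in Hepa1 (adjusted p = 0.194). Abcb9, a lysosomal peptide transporter, rose in MEFs by 0.26 (adjusted p = 0.0192) and read 0.14 in Hepa1 (adjusted p = 0.49). Its MEF call was lost with the DESeq2 Wald test, without MEF control replicate 3 (0.24) and without MEF ferroptotic replicate 1 (0.24) or 3 (0.21). Tap1, whose protein works with that of Tap2 to load peptides onto MHC class I and which the symbol rule leaves out, rose from 66.6 to 101 CPM in Hepa1 (0.60, adjusted p = 2.35e-11) and from 47.6 to 59.8 CPM in MEFs (0.33, adjusted p = 1.68e-09). Tap2 rose in Hepa1 (0.29, adjusted p = 8.70e-05) and was not called in MEFs (-0.04, adjusted p = 0.437). Cftr, with 3 and 1 reads in the Hepa1 groups and 9 and 19 in the MEF groups, was not tested.

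Apart from Abcf2 in Hepa1, the soluble members changed by less than the median size over all genes, 0.219 in Hepa1 and 0.2 in MEFs. Abcf2 fell in Hepa1 from 98.2, 98.6 and 102 to 81.0, 81.8 and 79.2 CPM (-0.31, SE 0.0403, adjusted p = 2.23e-07) and read 58.7, 61.1 and 62.4 and then 65.0, 64.0 and 66.3 CPM in MEFs (0.10, adjusted p = 0.0264). Abcf1, which helps start translation, fell in Hepa1 by 0.09 (adjusted p = 0.0159) and rose in MEFs by 0.15 (adjusted p = 8.67e-05). Abcf3, which acts with the integrated stress response kinase pathway, rose by 0.14 in Hepa1 (adjusted p = 0.00303) and 0.11 in MEFs (adjusted p = 0.0295). Abce1, which splits ribosomes after termination, had -0.02 in Hepa1 (adjusted p = 0.765) and -0.10 in MEFs (adjusted p = 0.0062). The interactions of Abcf1 (-0.24, adjusted p = 7.88e-05) and Abcf2 (-0.40, adjusted p = 7.36e-08) passed in every alternative run.

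Several of these small calls depended on a library or setting. The Hepa1 call of Abcf1 was lost without scaling (-0.05) and without Hepa1 ferroptotic replicate 1 (-0.09). In MEFs, Abce1 was not called without scaling (-0.03) or without MEF ferroptotic replicate 1 (-0.08). Abcf2 was not called there with DESeq2, with no filter, or without MEF control replicate 1 (0.07) or 2 (0.10) or MEF ferroptotic replicate 1 (0.10) or 3 (0.09). Abcf3 was not called there with DESeq2, with no filter, or without MEF control replicate 1 (0.07) or 3 (0.11) or MEF ferroptotic replicate 2 (0.11) or 3 (0.10). Of the 9 listed ribosome rescue and GCN2 partners, 1 was higher and 4 were lower in Hepa1 (median -0.054), and 4 were higher and 0 lower in MEFs (median 0.085). Shares over all genes were 29.3% higher and 28.8% lower in Hepa1 (median 0.004), and 27.8% and 27.2% in MEFs (0.003). Impact, an inhibitor of GCN2 activation, fell in Hepa1 from 189 to 147 CPM (-0.36, adjusted p = 4.45e-09) and rose in MEFs from 136 to 200.5 CPM (0.56, adjusted p = 5.64e-23).

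Hepa1 and MEFs were next set side by side, in one fit over 12 libraries. In control medium 33 of 35 members differed, 20 higher and 13 lower in Hepa1, beside 86.6% of all genes (40.7% higher and 46.0% lower). In ferroptotic medium the counts were again 33, 20 and 13, beside 88.2% (41.5% and 46.7%). So nearly all genes differed and the members' share is near that of all genes. The scaling matters here: it moved the difference by 0.564 on the log2 scale in control and 0.539 in ferroptotic medium against library totals alone, where 9101 genes were higher and 5004 lower in control medium and 9029 and 5109 in ferroptotic medium. With totals alone Abca2 turned from -0.41 to 0.15 in control medium, and in ferroptotic medium Abcb10 turned from -0.51 to 0.03 and Abcf2 from -0.24 to 0.30.

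The largest differences lay far outside that shift. Abcc2 had 16547 reads in Hepa1 and 0 in MEFs in control medium, at least 4100-fold higher with a floor of 3 reads over the group and the scaling of that fit. Abca6 had 3512 and 8 reads and a fitted log2 difference of 8.29 (SE 0.171, adjusted p = 3.81e-38). Abcb1a differed by 6.70 (SE 0.145, adjusted p = 3.02e-37), and Abca12, at 1.64, 1.83 and 1.63 CPM in Hepa1 in control medium and 0 reads in MEFs, was at least 24.5-fold higher by the same floor and scaling. In the other direction Abcc1 had 13 reads in Hepa1 and 7958 in MEFs, a log2 difference of -9.64 (SE 0.111, adjusted p = 2.91e-48). Of its 13 Hepa1 reads in ferroptotic medium, 10 were in replicate 3, the library with the Col1a2 reads, and 2 and 1 in the others. Abcg1 (-5.45, SE 0.402, adjusted p = 9.70e-17), Abcg4 (-4.55, SE 0.282, adjusted p = 2.03e-19) and Abca9 (-3.81, SE 0.156, adjusted p = 3.49e-26) followed.

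Most other members were read in both cell types at different levels. Hepa1 was higher in Abca1 (1.96), Abcb1b (3.54), Abcb6 (3.35), Abcc3 (1.63), Abcc4 (3.57) and Abcc5 (3.02) in control medium, and MEFs in Abcb9 (-2.00), Abcd3 (-1.33), Abcd4 (-1.59) and Abcg2 (-1.93), with adjusted p of 1.77e-18 or smaller. In ferroptotic medium the difference was 3.65 for Abca1, 1.62 for Abcb1b, 2.22 for Abcc4 and 2.19 for Abcc5. Abcd2 was lower in Hepa1 in control medium (-2.01, adjusted p = 1.00e-12) and higher in ferroptotic medium (0.50, adjusted p = 0.00194).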

How the data were processed

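The deposited files give raw counts per Ensembl gene, with 0 values differing between the series table and the sample files. Per the submitters' processing notes, STAR 2.7.10a, HTSeq 0.9.1, Trimmomatic 0.39 and FastQC 0.11.9 were used on GRCm38 (mm10). The annotation release and strand mode were not given in the sources used here. Reads that map to several places carry no counts, 1.996 to 2.576% of the reads hit no gene, and for 3.658 to 4.03% the gene was ambiguous. Results of 2 members are not reported here, though the counts include them. The members and lists were chosen with earlier results of these data known. Each cell type's 6 libraries were tested with edgeR 4.0.16 in R 4.3.3 (filterByExpr, TMM, quasi-likelihood F-test, Benjamini-Hochberg over all genes tested, call at 0.05), and interaction and cell type over all 12. Each SE is the log2 change divided by the square root of F. CPM were scaled within one cell type at a time. Alternatives were DESeq2 1.42.0 size factors and Wald test, limma-voom (limma 3.58.1), no scaling, other filters, a replicate block and leaving out each library. The pipeline was tested on simulated data. Full values go to members reaching a mean of 1 CPM in a group that are among the 12 smallest adjusted p of either medium fit, the 6 smallest of the interaction or the 4 largest cell type differences per direction, and other members were given briefly. Up to 3 called partners per list and fit were eligible for naming, and some others were named where they went against these. Floors and ratios of few reads use the TMM-scaled depths of their fit and cover counting error only, and 11 members overlap exons on the other strand.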

Additional observations from a re-analysis of the deposited data

Results flagged for a closer look

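The test of the difference between the media responses of Hepa1 and MEFs passed for 19 members (edgeR interaction over 12 libraries, log2, Hepa1 minus MEF). The difference was positive for Abca1 (1.69), Abcd2 (2.52), Abcb10 (0.72), Abcc3 (0.59), Abca8b (0.49), Abcg2 (0.25), Abcd3 (0.16), Abcg4 (1.61) and Abcc6 (3.78). It was negative for Abcb1a (-1.94), Abcb1b (-1.92), Abcc4 (-1.35), Abcc5 (-0.83), Abcb6 (-0.77), Abcf2 (-0.40), Abca5 (-0.36), Abca2 (-0.30), Abcf1 (-0.24) and Abcc2 (-4.65). The calls of 13 held in every alternative run, and those of Abcb6, Abcc2, Abcc6, Abcd3, Abcg2 and Abcg4 were lost in at least 1. The values of Abcc2 and Abcc6 involve a group with 0 reads and depend on the prior count. Groups of 3 libraries are too small for the check of single libraries that stand apart.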

How the results depend on the processing

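In the Hepa1 comparison 18 of 20 called members stayed called in every alternative, in MEFs 18 of 26, and in the interaction 13 of 19. Between the cell types, 31 of 33 in control medium and 30 of 33 in ferroptotic medium stayed called in the same direction. The count of members lower in MEFs went from 14 to 9 without scaling beyond totals, a shift of 0.068 on the log2 scale. No called medium change or interaction reversed. Uncalled changes near 0 turned sign in 3 cases (Abce1, Hepa1 medium; Abca5, MEF medium; Abcg2, MEF medium). They were 0.0303, 0.0507 and 0.0161 without scaling, and with single libraries left out the first ran from -0.0558 to 0.0436 and the second from -0.0848 to 0.0341. Between the cell types Abca2 (0.15), Abcb10 (0.0281) and Abcf2 (0.30) reversed without scaling. Leaving out single libraries gave 19 to 21 called members in Hepa1 (8 to 9 higher, 10 to 12 lower), 21 to 27 in MEFs (9 to 13 and 12 to 14), 17 to 19 for the interaction (8 to 9 and 9 to 10) and 32 to 34 between the cell types in each medium (19 to 20 and 13 to 14). Over all genes those fits called 3523 to 3848 higher and 3457 to 3785 lower in Hepa1, 3701 to 3825 and 3634 to 3804 in MEFs, 3318 to 3578 and 3036 to 3182 for the interaction, 6255 to 6432 and 7132 to 7309 in control medium and 6395 to 6607 and 7239 to 7452 in ferroptotic medium. Same-numbered libraries did not deviate together in Hepa1 (r from -0.0635 to -0.0368) and hardly in MEFs (-0.000841 to 0.108), so the numbers were not taken as pairs. With a replicate block the counts of called members were 20 in Hepa1, 26 in MEFs, 19 for the interaction and 33 in either medium between the cell types, the same as without it. The 15 members that were not tested had at most 13 reads in a library, and 2 of them had no read in any. Low expression and limited depth cannot be told apart for these 15.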

Other observations

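A few members below the filter on low counts showed reads in 1 medium only or mostly. Abcc9, which encodes a sulfonylurea receptor subunit of potassium channels, was read 0 times in MEF control libraries and 23 times in the MEF ferroptotic ones (10, 2 and 11), at least 7.09-fold higher with a floor of 3 reads over the group. Abcb11, the bile salt export pump gene, was read 2 and 13 times in the same groups (ratio 6.01, 95% counting interval from 1.36 up to 54.9). Exons of both overlap annotated genes on the other strand. Both were picked after their values were seen.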
